A study of Mus musculus with 10 samples.

Results

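The genes *Ngfr*, *Ntrk2*, *Ntrk3*, *Bdnf*, *Ntf3*, *Reln*, *Ncam1*, *Gfap* and *Nes* were followed in hypertrophied and quiescent hepatic stellate cells (HSCs) of the mouse. They are 9 genes with a place in neurons, glia or neurotrophin signalling, chosen by gene symbol, and each was found once among the 25233 entries with a gene symbol in a table of 62322 entries. Of the 9 genes, 8 passed the filter on low values (10 normalized counts or more in 5 or more libraries) and were tested, whereas *Ntrk3* did not pass. Between hypHSCs and qHSCs, 4 genes were lower (*Ngfr*, *Gfap*, *Reln* and *Ntf3*), 2 were higher (*Ncam1* and *Bdnf*), and 2 were not called (*Nes* and *Ntrk2*). Over all 14630 genes tested, 21.7% were lower and 17.8% were higher. The call of *Bdnf* was lost in the count models edgeR and DESeq2.

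RNA of sorted cells was sequenced in 10 libraries, 5 of hypHSCs and 5 of qHSCs. All mice were C57BL/6J males. The hypHSCs came from mice fed the CDAHFD, a choline-deficient, low-methionine, high-fat diet that produces steatohepatitis and fibrosis: for hypHSC 1 and 2 the diet lasted 13 weeks and the mice were 19 weeks old, and for hypHSC 3, 4 and 5 the diet lasted 12 weeks and the mice were 18 weeks old. Standard-diet mice gave the qHSCs and were older, 36 weeks for qHSC 1, 2 and 5 and 34 weeks for qHSC 3 and 4. The CDAHFD livers were digested more strongly, and hypHSCs were sorted on green fluorescence but qHSCs on blue fluorescence. The paper also reports bacterial contamination in cell preparations from CDAHFD livers only, and antibiotics in most buffers used for them. Diet, age, digestion, bacteria, antibiotics and gate therefore cannot be told apart in these libraries. The preparations were chosen for RNA quality, and the paper reports more hypHSC samples than CDAHFD mice to choose from. Since the labels do not say which mouse gave which library, the spread between libraries may be partly technical. Each n counts preparations, which the tests treat as independent.

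HSCs are the retinoid-storing pericytes of the liver sinusoid. They are known for carrying genes first described in the nervous system, among them the astrocyte filament gene *Gfap*, the neurotrophin receptor gene *Ngfr*, the matrix gene *Reln* and the adhesion gene *Ncam1*. Neurotrophins are secreted as precursors that proteases cleave to mature factors. The mature factors signal through Trk tyrosine kinases, BDNF through the product of *Ntrk2* and neurotrophin-3 mainly through that of *Ntrk3*, while all of them bind the p75 receptor encoded by *Ngfr*. The precursors bind p75 together with sortilin, the product of *Sort1*.

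Depth was similar in the 2 groups, at 30534719 to 43283589 reads on genes with a symbol in hypHSCs and 35640104 to 47317028 in qHSCs. A gene with 3 reads was worth 2.49 to 4.54 normalized counts in hypHSCs and 2.25 to 2.72 in qHSCs, and values at or under this floor were read as not detectable at this depth. Mitochondrial genes took 2.21% to 12.78% of the reads in hypHSCs and 1.25% to 1.61% in qHSCs. The cell type in the labels was checked on marker genes. Of 11 HSC markers all 11 were lower in hypHSCs, with a summed level of 9579 to 27636 normalized counts in hypHSCs and 811099 to 1473773 in qHSCs. Of 14 macrophage markers 11 were higher in hypHSCs, with a summed level of 995472 to 1387391 normalized counts in hypHSCs and 5653 to 120960.0 in qHSCs. Of 9 portal fibroblast and mesothelial markers, 5 were tested, 3 were higher and none was lower, with sums of 940.8 to 4425 in hypHSCs and 234 to 434 in qHSCs. Of 7 cholangiocyte markers, 6 were tested and all 6 were higher, with sums of 162484 to 336745 in hypHSCs and 50.5 to 388 in qHSCs, most of it *Spp1* in hypHSCs. The HSC, macrophage, cholangiocyte, portal fibroblast and mesothelial levels moved with the groups in every comparison that follows, and their part in the results was not tested. None of the 8 hepatocyte markers was called. In bulk RNA, fewer cells of a type and less RNA per cell cannot be told apart.

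The 250 bases before a RefSeq transcription start are printed for the 4 genes that were called lower in hypHSCs, which share that direction. The sequences come from the RefSeq promoter table (build GRCm38.p6), and each was matched to 1 place in GRCm39, the build of the deposited table. All lie on the minus strand and are written 5′ to 3′ along the gene. GENCODE places the start of *Gfap* at 102791738, so the *Gfap* window lies inside the gene as annotated there. With GENCODE starts at 95478561 and 126143873, the *Ngfr* and *Ntf3* windows lie partly inside their genes. Capitals mark the GC box, GGGCGG on either strand.
*Ngfr*, chr11:95478525-95478774: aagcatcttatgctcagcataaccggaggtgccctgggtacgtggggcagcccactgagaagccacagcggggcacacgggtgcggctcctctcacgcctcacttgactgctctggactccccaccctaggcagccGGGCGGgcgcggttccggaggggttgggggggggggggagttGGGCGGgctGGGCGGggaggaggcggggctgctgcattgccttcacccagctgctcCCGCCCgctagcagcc
*Reln*, chr5:22549704-22549953: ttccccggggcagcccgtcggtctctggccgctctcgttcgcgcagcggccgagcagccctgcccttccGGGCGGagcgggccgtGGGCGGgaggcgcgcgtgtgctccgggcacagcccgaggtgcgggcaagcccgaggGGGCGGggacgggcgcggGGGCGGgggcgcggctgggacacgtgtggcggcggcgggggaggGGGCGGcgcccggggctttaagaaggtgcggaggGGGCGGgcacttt
*Ntf3*, first of 2 starts, chr6:126143708-126143957: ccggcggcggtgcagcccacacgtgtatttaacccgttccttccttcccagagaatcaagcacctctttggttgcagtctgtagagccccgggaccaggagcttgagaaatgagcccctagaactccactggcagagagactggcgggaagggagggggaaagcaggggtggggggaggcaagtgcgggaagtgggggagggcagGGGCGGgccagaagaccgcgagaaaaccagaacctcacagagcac
*Gfap*, chr11:102788027-102788276: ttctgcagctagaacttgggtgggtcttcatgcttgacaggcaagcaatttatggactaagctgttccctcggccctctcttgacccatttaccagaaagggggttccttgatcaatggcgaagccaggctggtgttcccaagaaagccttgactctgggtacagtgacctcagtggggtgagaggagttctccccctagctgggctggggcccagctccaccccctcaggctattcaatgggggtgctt
The *Reln* window was the richest of the 4 in CpG, with 37 CpG dinucleotides and 80.0% GC, and held 6 GC boxes. *Ngfr* had 16 CpG, 70.4% GC and 4 GC boxes, and *Ntf3* had 11 CpG, 62.0% GC and 1 GC box. The *Gfap* window held 2 CpG at 55.6% GC and no GC box. Over all 32851 windows of the table the medians were 6 CpG and 52.4% GC, and 32.7% of the windows held a GC box. The E-box CANNTG was found in *Ngfr*, *Reln* and *Ntf3* but not in *Gfap*, and in 66.2% of all windows. None of the 4 windows held the GATA motif GATAA, which 22.6% of all windows held, or the TATA box TATAAA, held by 12.4%. The AP-1 motif TGANTCA (6.75% of all windows) and the cAMP response element TGACGTCA (1.55% of all windows) were not found in them either. All motifs were searched on both strands. These letter matches are a description of the windows. The table had windows for 7 of the 9 genes, and *Ncam1* and *Ntrk3* were without an entry.

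*Ngfr* (chr11:95459644-95478525, mm39, minus strand) encodes the p75 neurotrophin receptor, a death-domain receptor of the TNF receptor family. In qHSCs 1 to 5 its normalized counts were 8318, 9201, 7799, 6809 and 7675. The hypHSC values were 189, 165, 147, 3.15 and 0. All hypHSC libraries lay far below all qHSC libraries, and hypHSC 4 and 5 stood at or under the floor while hypHSC 1, 2 and 3 did not. The mean was 101 ± 91.7 (SD, n = 5) in hypHSCs and 7960.3 ± 881 (SD, n = 5) in qHSCs, a ratio of 79.0 in favour of qHSCs. On the log2(normalized count + 1) scale the fold change was -8.11 (SE 1.35, limma adjusted p = 0.000523), and the exact permutation test gave p = 0.00794, the smallest that 252 arrangements allow. The size rests partly on the 2 libraries without detectable *Ngfr*, since without hypHSC 4 and 5 the fold change was -5.57 (limma adjusted p = 2.68e-08).

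*Ntrk2* (chr13:58954382-59281784, plus strand) encodes TrkB, the receptor of BDNF. Its normalized counts were 35.3, 1.70, 15.8, 40.2 and 86.2 in qHSCs 1 to 5. They were 91.6, 3.11, 19.1, 22.0 and 69.6 in hypHSCs 1 to 5. Both groups ran from about the floor upward, and their ranges overlapped almost fully. Mean *Ntrk2* was 41.1 ± 37.6 in hypHSCs against 35.8 ± 32.1 in qHSCs (SD, n = 5 each). The log2 fold change was 0.22 (SE 1.06, limma adjusted p = 0.88, exact permutation p = 0.841) and its sign turned under other scalings, being -0.11 with libraries scaled to the same total and -0.62 with scaling on reference genes. The standard error was larger than a 2-fold change, so a change of that size was not detectable here.

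*Ntrk3* (chr7:77841862-78227728, minus strand) encodes TrkC, the receptor of neurotrophin-3. The qHSC values were 1.81, 0, 2.36, 0 and 0, from at most 3 reads in a library. In hypHSCs 1 to 5 they were 135, 41.4, 79.8, 1.05 and 0. Thus *Ntrk3* was present in hypHSC 1, 2 and 3 and at or under the floor in the other 7 libraries. It reached 10 normalized counts in fewer than 5 libraries and was not part of the limma test, and the exact permutation test of its log2 level gave p = 0.119. The 3 hypHSC libraries with *Ntrk3* are those with *Ngfr* and *Gfap*. The summed HSC markers of hypHSCs 1 to 5 were 27636, 20008, 17419, 13988 and 9579 normalized counts. The summed Schwann cell markers were 520.2, 660.5, 498, 193 and 25.7 in the same order and 173 to 257 in qHSCs. Portal fibroblast and mesothelial sums were 4425, 2636, 1915, 1791 and 940.8, and all of these lists were lowest in hypHSC 4 and 5. Hepatocyte sums were instead highest in hypHSC 4 and 5, at 45386 and 97717. Genes with a symbol that had a read numbered 16634, 15821, 16329, 14949 and 14028 in hypHSCs 1 to 5 and 15703 to 16211 in qHSCs. Fewer genes were thus detected in hypHSC 4 and 5 than in any other library. The part of cell type levels and of gene detection in the levels of *Ngfr*, *Ntrk3* and *Gfap* was not tested. Of the 13 Schwann cell markers, *Sox10*, *Cdh19* and *Foxd3* were at 0 in all 10 libraries, and 1 of the 5 tested was higher and 2 were lower in hypHSCs.

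*Bdnf* (chr2:109505045-109557388, plus strand) encodes brain-derived neurotrophic factor. Its qHSC values were 21.7, 11.1, 177, 0 and 0. Those of hypHSCs were 228, 158, 85.7, 362 and 254. The hypHSC libraries all had *Bdnf*, whereas qHSC 3 alone of the qHSCs had a value within their range, so the groups overlapped. Mean *Bdnf* was 218 ± 104 in hypHSCs against 42.0 ± 76.1 (SD, n = 5 each), with a log2 fold change of 4.50 (SE 1.28, limma adjusted p = 0.0132, exact permutation p = 0.0238). The call was lost in the count models, with a log2 fold change of 2.41 in both and an adjusted p of 0.0949 in DESeq2 and 0.141 in edgeR. An antisense gene, *Gm45346*, overlaps 13.54% of the exon bases of *Bdnf*, and reads of the 2 genes cannot be told apart in these unstranded libraries.

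*Ntf3* (chr6:126078376-126143707, minus strand) encodes neurotrophin-3. It was abundant in qHSCs, at 2430.2, 2886, 2159, 1961 and 2765 normalized counts. The 5 hypHSC libraries had 167, 195, 116, 89.2 and 104. Every hypHSC library was below every qHSC library, and all 10 libraries were well above the floor. Mean *Ntf3* was 134 ± 44.7 in hypHSCs against 2440.2 ± 391 in qHSCs (SD, n = 5 each), an 18.2-fold difference. Its log2 fold change was -4.22 (SE 0.25, limma adjusted p = 3.42e-07, exact permutation p = 0.00794). *Gm67883*, an antisense lncRNA gene, overlaps 12.26% of the *Ntf3* exon bases.

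The other neurotrophin ligands, receptors and co-receptors reported here were 9 genes, of which 4 passed the filter. Of these 4, 2 were higher, 1 was lower and 1 was not called (median log2 fold change 1.86, against -0.20 over all 14630 genes tested). These are 50% higher and 25% lower of only 4 genes, against 17.8% and 21.7% over all genes tested. *Lingo1*, whose product is a co-receptor of p75, was at 64.7 ± 21.04 in qHSCs and 3.40 ± 4.93 in hypHSCs (log2 fold change -4.71, limma adjusted p = 0.000671). The sorting receptor genes *Sort1* and *Sorl1* went the other way. *Sort1*, the gene of sortilin, rose from 67.5 ± 20.5 to 1448 ± 353 (log2 fold change 4.42, SE 0.26, limma adjusted p = 3.63e-07). *Sorl1*, a related receptor, rose from 3.69 ± 4.11 to 1007 ± 255 (log2 fold change 8.31, SE 0.68, limma adjusted p = 3.56e-06). The qHSC values of *Sorl1* ran from 0 to 9.41, so the size of its rise depends on the pseudocount. *Nradd*, a p75 homologue, was at 153 ± 66.9 in qHSCs and 126 ± 78.1 in hypHSCs and was not called (limma adjusted p = 0.475). *Ntf5*, the neurotrophin-4 gene, did not exceed 13.5 normalized counts. *Sorcs1* and *Rtn4r* also missed the filter, with maxima of 6.74 and 42.4 normalized counts, both in hypHSCs. *Sorcs2* and *Sorcs3* missed it too, with maxima of 41.8 and 32.6 normalized counts, both in qHSCs. Beside *Ntf3* and *Ngfr*, the qHSC libraries thus held *Ntrk3* at 2.36 normalized counts or less and *Ntrk2* at 86.2 or less.

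**Figure D1:**
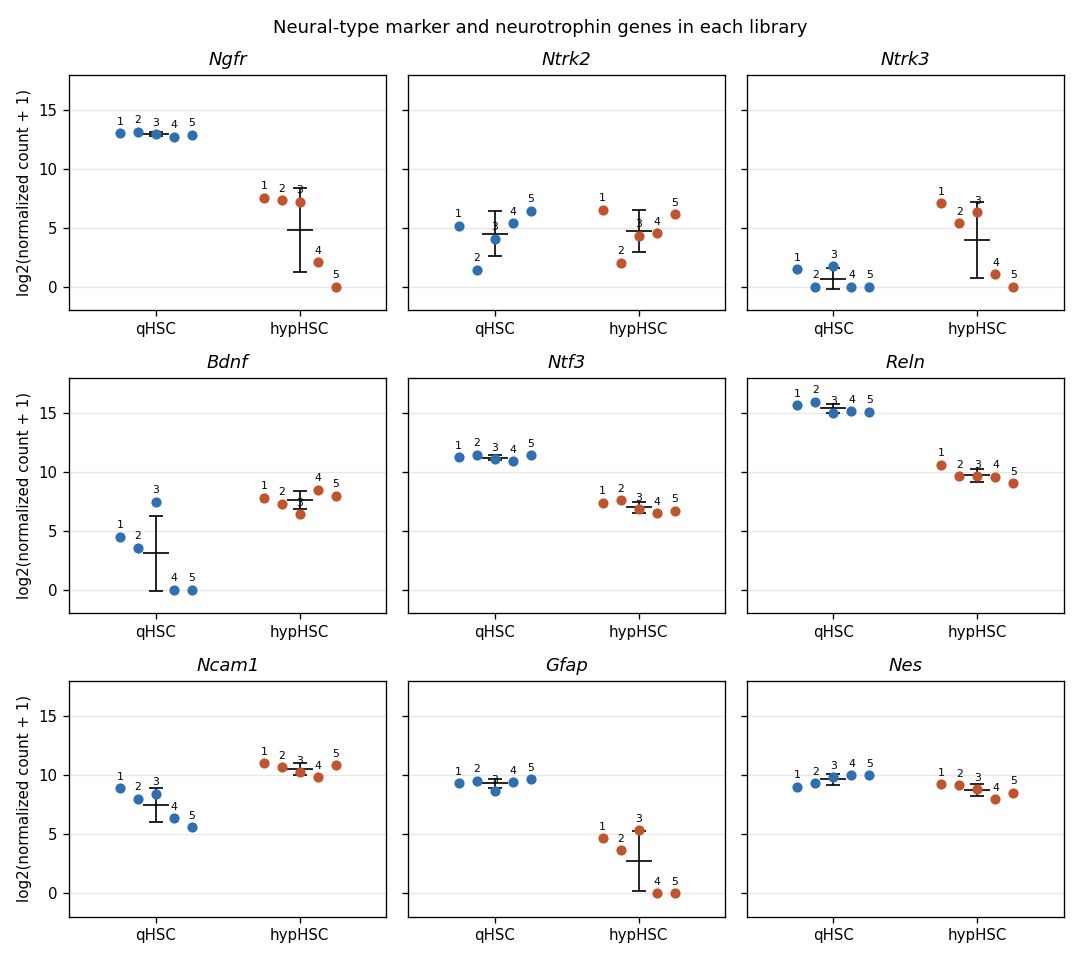
Level of each of the 9 genes as log2(normalized count + 1) on the y axis, for the 5 qHSC (blue) and 5 hypHSC (orange) libraries, numbered by replicate, with the mean and SD as bars. Ngfr, Gfap, Reln and Ntf3 are lower and Ncam1 is higher in every hypHSC library, and hypHSC 4 and 5 stand at the bottom for Ngfr, Ntrk3 and Gfap.

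*Reln* (chr5:22089452-22549704, minus strand) encodes reelin, a large secreted glycoprotein that guides neuronal positioning. It was the most abundant of the 9 genes in normalized counts, at 53321, 65346, 34308, 36709.8 and 35800.1 in qHSCs 1 to 5. In hypHSCs 1 to 5 it was at 1593, 818, 821, 787 and 543. Reelin RNA was still well above the floor in every hypHSC library, but each of them was below each qHSC library. Mean *Reln* was 912 ± 398 in hypHSCs against 45097 ± 13700.5 in qHSCs (SD, n = 5 each), a ratio of 49.4 in favour of qHSCs. On the log2 scale the change was -5.67 (SE 0.29, limma adjusted p = 1.4e-07, exact permutation p = 0.00794). Antisense genes overlap 2.33% and 2.38% of the *Reln* exon bases.

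The reelin pathway comprised 18 other genes, of which 16 were tested, 2 were higher, 2 were lower and 12 were not called (median log2 fold change -0.61, against -0.20 over all genes). These are 12.5% in each direction, below the 17.8% higher and 21.7% lower over all genes tested. The count of lower genes depended on the scaling and rose to 5 with libraries scaled to the same total and 11 with scaling on reference genes, and it was 4 without hypHSC 5. *Lrp8*, the ApoE receptor 2 gene and a reelin receptor, was at 68.2 ± 43.2 in hypHSCs and 0.906 ± 2.03 in qHSCs (log2 fold change 5.34, SE 0.75, limma adjusted p = 0.00015). *Fyn*, the kinase gene that acts on the adaptor DAB1, was at 425 ± 83.1 against 115 ± 47.0 (log2 fold change 1.98, limma adjusted p = 0.000838). *Adamts5*, a protease gene, fell by 2.01 and *Pik3r1*, a regulatory subunit gene of PI3 kinase, fell by 1.70 on the log2 scale (limma adjusted p = 0.000305 and 0.000152). The other reelin receptor gene, *Vldlr*, and the adaptor gene *Dab1* were at 0 in all qHSCs and reached 93.0 and 125 normalized counts in hypHSCs, too few libraries for the test. The qHSC libraries therefore held reelin RNA with no detectable *Vldlr* or *Dab1*, and *Lrp8* was at 4.53 normalized counts or less in them.

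*Ncam1* (chr9:49413429-49710693, minus strand) encodes the neural cell adhesion molecule, which on HSCs has been used as a marker of periportal or activated cells. Its qHSC values were 485, 256, 348, 82.2 and 47.2. Those of hypHSCs were 2094, 1626, 1237, 920.1 and 1841. The lowest hypHSC library was above the highest qHSC library, and the qHSC values themselves spread widely, with qHSC 4 and 5 lowest. Mean *Ncam1* was 1544 ± 469 in hypHSCs against 244 ± 183 in qHSCs (SD, n = 5 each), a ratio of 6.33 in favour of hypHSCs. The log2 fold change was 3.06 (SE 0.59, limma adjusted p = 0.0013, exact permutation p = 0.00794). *Gm11149*, an antisense lncRNA gene that overlaps 4.74% of its exon bases, reached 154 normalized counts in hypHSCs and 28.3 in qHSCs.

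Of 34 other neural adhesion, synaptic and neuronal cytoskeleton genes, 15 were tested, and they went mostly against *Ncam1*: 3 were higher and 10 were lower, 20% and 66.7% against 17.8% and 21.7% over all genes (median log2 fold change -4.19, against -0.20 over all genes). *Ntm*, the gene of the GPI-anchored adhesion protein neurotrimin, was at 4704 ± 1352 in qHSCs and 5.14 ± 5.74 in hypHSCs (log2 fold change -10.26, SE 0.74, limma adjusted p = 1.39e-06). The genes of the microtubule-associated proteins tau and MAP2 also fell, *Mapt* from 1009.6 ± 152 to 1.10 ± 1.80 (log2 fold change -9.25, limma adjusted p = 2.85e-07) and *Map2* from 659.9 ± 168 to 10.8 ± 11.9 (log2 fold change -6.73, limma adjusted p = 7.63e-05). *Mapt* had at most 4 reads in a hypHSC library, so the size of its fall depends on the pseudocount. Among those that rose, *Uchl1*, a deubiquitinase gene of neurons, was at 449 ± 141 in hypHSCs and at 1.70 normalized counts or less in qHSCs, from at most 2 reads in a library (limma adjusted p = 2.85e-07). *Map1b*, the gene of another microtubule-associated protein, was at 151 ± 102 against 12.8 ± 15.1 (log2 fold change 4.29, limma adjusted p = 0.00383), and *Alcam*, an adhesion gene of the immunoglobulin family, at 2157 ± 375 against 639 ± 360 (log2 fold change 1.98, limma adjusted p = 0.0024). The change of *Ncam1* was thus opposite in sign to that of most tested genes of its list, and was shared in sign by *Alcam*.

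*Gfap* (chr11:102778163-102788026, minus strand) encodes glial fibrillary acidic protein, the intermediate filament of astrocytes, and is a common marker of quiescent HSCs in rodents. Its qHSC values were 638, 741, 402, 685 and 812. In hypHSCs 1 to 5 they were 24.3, 11.4, 39.1, 0 and 0. All hypHSC libraries were below all qHSC libraries, and hypHSC 4 and 5 had no read. Mean *Gfap* was 14.9 ± 16.8 in hypHSCs against 656 ± 156 in qHSCs (SD, n = 5 each), a ratio of 43.9 in favour of qHSCs. Its log2 fold change was -6.60 (SE 1.02, limma adjusted p = 0.000306, exact permutation p = 0.00794), and without hypHSC 4 and 5 it was -4.78 (limma adjusted p = 7.29e-06).

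*Nes* (chr3:87878373-87887756, plus strand) encodes nestin, an intermediate filament of neural progenitors that is also found in pericytes. Its qHSC values were 523, 645, 933, 1025 and 1024. In hypHSCs 1 to 5 they were 598, 582, 450, 247 and 369. Both groups had *Nes* in every library, and qHSC 1 lay within the range of the hypHSCs. Mean *Nes* was 449 ± 148 in hypHSCs against 830.1 ± 232 in qHSCs (SD, n = 5 each). The log2 fold change of -0.91 (SE 0.30, limma adjusted p = 0.0264, exact permutation p = 0.0317) missed the threshold of 1 on size. It was -1.26 with libraries scaled to the same total and -1.84 with scaling on *Hprt*, *Pgk1* and *Actb*, which passed it. In other settings the adjusted p was above 0.05, as with the replicate number as a block (0.0695), without hypHSC 4 (log2 fold change -0.71, limma adjusted p = 0.0568), without qHSC 3, 4 or 5 (limma adjusted p = 0.061 to 0.0664), and without hypHSC 4 and 5 (log2 fold change -0.57, limma adjusted p = 0.0806).

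Other intermediate filament genes went both ways. Of 16 genes of this list, plectin included, 10 were tested, 7 were higher and 2 were lower, 70% and 20% against 17.8% and 21.7% over all genes (median log2 fold change 2.08, against -0.20 over all genes). *Des*, the muscle-type filament gene that marks HSCs, fell from 2747 ± 281 to 132 ± 111 (log2 fold change -4.89, SE 0.58, limma adjusted p = 4.73e-05), and *Synm*, which encodes the filament protein synemin, fell from 125 ± 56.2 to 22.3 ± 28.00 (log2 fold change -3.33, limma adjusted p = 0.00825). The 3 largest rises were the epithelial keratin genes *Krt19*, *Krt8* and *Krt18*, with log2 fold changes of 6.16, 3.80 and 3.53 (limma adjusted p = 0.000238, 0.000267 and 6.1e-05), and *Krt19* is itself one of the cholangiocyte markers. The neurofilament genes *Ina* and *Nefm* were at 0 in all 10 libraries. Of 8 other astrocyte genes, 7 were tested, 3 were higher and 1 was lower, 42.9% and 14.3% against 17.8% and 21.7% over all genes (median log2 fold change 0.45, against -0.20). In edgeR, in DESeq2 and with scaling on reference genes 2 were higher, as they were without any one of hypHSC 1, 3 and 4 and qHSC 2, 3 and 5. The gap junction gene *Gja1* fell by 4.81 on the log2 scale (limma adjusted p = 2.65e-07), whereas the lipid-binding protein gene *Fabp7* rose by 6.01, the potassium channel gene *Kcnj10* by 3.83 and the glutamine synthetase gene *Glul* by 2.10 (limma adjusted p = 0.000169, 0.0304 and 0.000246). Among these astrocyte-type genes *Gfap* and *Gja1* were lower and the other called genes were higher.

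Over the 8 tested members, 4 were lower and 2 were higher, against 21.7% and 17.8% of all genes tested, and 39.5% of all genes were called in either direction. The ranges of the 2 groups did not overlap for 5 members, the 4 lower genes and *Ncam1*, against 39.5% of all genes. The median log2 fold change of the 8 was -2.56, against -0.20 over all genes. Scaling shifted this background, to -0.54 with the same total and -1.12 with reference genes, and in the count models edgeR and DESeq2 it was 0.00. The signs of the 6 called members were the same under every scaling. Without hypHSC 4 and 5, 4 members were still lower and 2 higher.

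**Figure D2:**
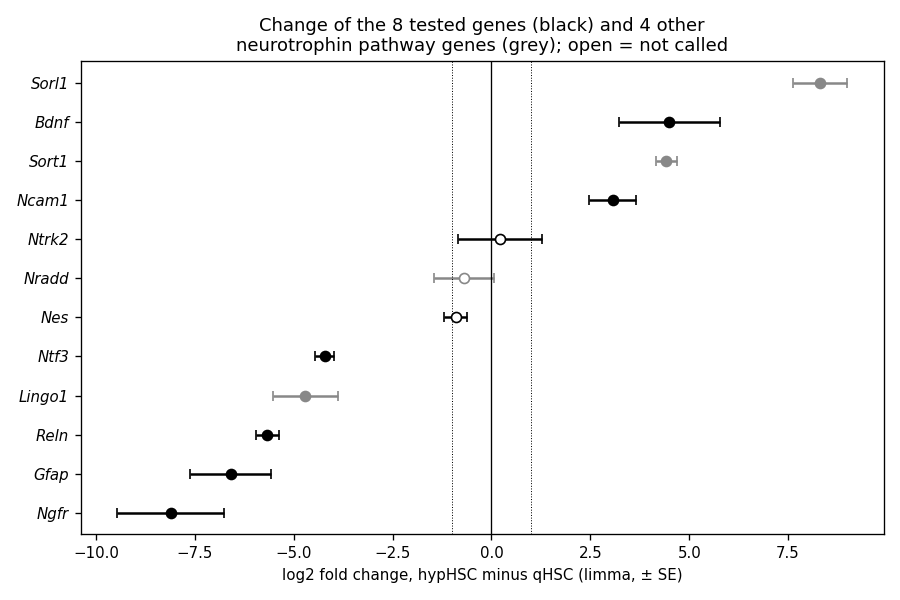
Log2 fold change (hypHSC minus qHSC, limma) with its SE on the x axis for the 8 tested members (black) and the 4 tested genes among the other neurotrophin ligands, receptors and co-receptors (grey), with open points for genes not called and dotted lines at the size threshold of 1. Ngfr has the largest fall at -8.11, and Bdnf at 4.50 and Ncam1 at 3.06 are the 2 members that rise, beside Sorl1 at 8.31 and Sort1 at 4.42.

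Levels were also compared between genes per exon length, as FPKM computed from the recovered reads. The length joins the exons of all annotated transcripts, 23738 bases from 15 transcripts for *Reln* and 3452 bases from 2 for *Ngfr*. The order of the genes can therefore depend on the length used. In qHSCs *Ngfr* had the highest FPKM, at 70.5 ± 8.49, followed by *Reln* at 58.0 ± 17.7 and *Ntf3* at 42.8 ± 5.74 (SD, n = 5 each). Their ranges over libraries, 60.7 to 80.7, 42.5 to 83.4 and 34.7 to 50.3 FPKM, overlapped between *Ngfr* and *Reln* and between *Reln* and *Ntf3*. These 3 genes stood at ranks 520, 648 and 866 among tested genes with an exon length, above at least 93.8% of them. *Nes* at 3.95 ± 1.08 FPKM and *Gfap* at 3.48 ± 0.696 FPKM came next and overlapped. In hypHSCs the order changed, with *Ncam1* first at 4.19 ± 1.25 FPKM, then *Ntf3* at 1.87 ± 0.687 and *Nes* at 1.70 ± 0.635. Their ranges there, 2.34 to 5.79, 1.15 to 2.75 and 0.858 to 2.27 FPKM, overlapped between *Ncam1* and *Ntf3* and between *Ntf3* and *Nes*. *Reln*, *Ngfr* and *Bdnf* were between 0.664 and 0.931 FPKM there, with overlapping ranges. *Gfap*, at 0.0685 FPKM in hypHSCs, exceeded only 6.2% of the tested genes. *Ntrk2* and *Ntrk3* were under 0.05 FPKM in both groups, a value that the summed length of their many annotated exons lowers.

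**Figure D3:**
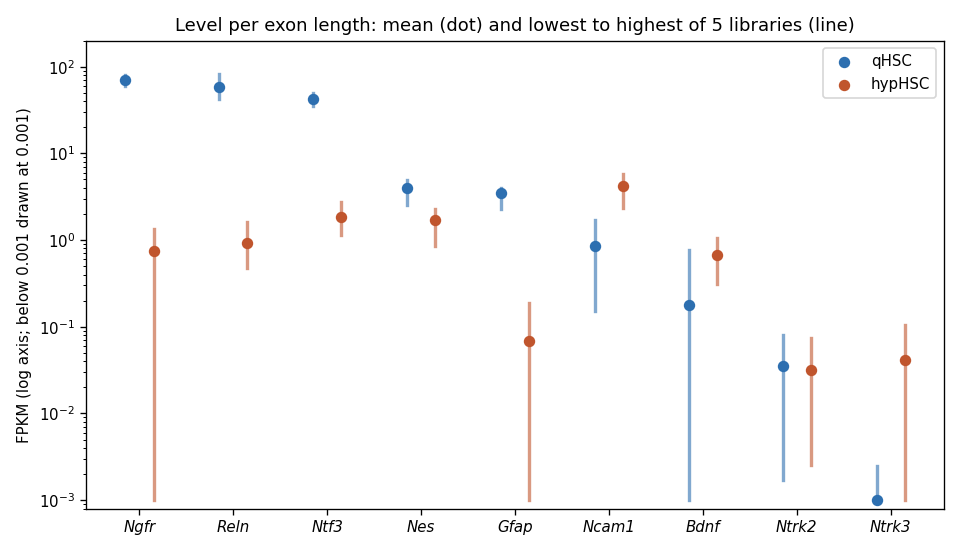
Level per exon length as FPKM on a log axis for the 9 genes, in order of their qHSC mean, with the mean as a dot and the lowest to highest of 5 libraries as a line, for qHSC (blue) and hypHSC (orange), values below 0.001 being drawn at 0.001. Ngfr, Reln and Ntf3 stand at 70.5, 58.0 and 42.8 FPKM in qHSCs and fall to 0.740, 0.931 and 1.87 in hypHSCs, while Ncam1 goes from 0.864 to 4.19.

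Within a group, the labels allow 2 further splits, on which no test was run. Between hypHSCs at 13 and at 12 weeks of diet, the ranges did not overlap for *Nes*, *Ngfr* and *Ntf3*, all 3 higher at 13 weeks, against 21.9% of all genes tested. Between qHSCs at 34 and 36 weeks of age, *Ntf3* alone was without overlap, at 1961 and 2159 against 2430.2 to 2886, and 19.5% of all genes were without overlap in that split. Age differed by 1 week along with the diet in the first split, and the second compares 2 libraries with 3. In the first split *Ngfr* was separated narrowly, at 165 in hypHSC 2 against 147 in hypHSC 3. The summed HSC markers were also higher at 13 weeks (27636 and 20008 against 17419 or less). So was the mitochondrial share of reads (12.78% and 7.27% against 3.42% or less), and the part of either was not tested.

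The genes downstream of and around the neurotrophins were examined next. Of 30 genes of neurotrophin processing and signalling, 29 were tested, 5 were higher, 10 were lower and 14 were not called (median log2 fold change -0.48, against -0.20 over all genes). The shares of 17.2% higher and 34.5% lower compare with 17.8% and 21.7% over all genes, and the first is no more than that background. *Pcsk5*, a convertase gene, was at 99.7 ± 25.2 in qHSCs and 4.21 ± 6.51 in hypHSCs (log2 fold change -5.25, limma adjusted p = 0.000403). *Shc3*, an adaptor gene of Trk receptors known from neurons, fell by 4.23 and *Plg*, the plasminogen gene, by 3.86 on the log2 scale (limma adjusted p = 0.006 and 0.00455). The largest rise was in another adaptor gene, *Shc2*, at 68.1 ± 35.1 in hypHSCs and 0 in all qHSCs, at least 25-fold higher when set against the floor of 3 reads in a library. The adaptor genes *Grb2* and *Sh2b2* rose by 2.78 and 2.46 on the log2 scale (limma adjusted p = 2.82e-07 and 0.0177).

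Of 24 other neurotrophic factor and receptor genes, 15 were tested, 4 were higher, 3 were lower and 8 were not called (median log2 fold change 0.37, against -0.20 over all genes). At 26.7% higher and 20% lower, the list was not far from the 17.8% and 21.7% of all genes. The largest rises were in *Ptn*, which encodes pleiotrophin, at 321 ± 196 against 4.72 ± 10.6 (log2 fold change 7.07, limma adjusted p = 0.000155), and in the cytokine gene *Lif* (log2 fold change 4.06, limma adjusted p = 0.00586). An entry that joins the cytokine gene *Clcf1* with *Pold4* and *Gm45928* had a log2 fold change of 1.95 (limma adjusted p = 8.91e-06), which cannot be assigned to any of the 3 genes. The falls were in the receptor genes *Il6st*, from 3549.9 ± 1138 to 372 ± 109 (log2 fold change -3.25, limma adjusted p = 2.27e-06), and *Lifr*, by 2.94 on the log2 scale (limma adjusted p = 0.000226), and in the factor gene *Cdnf* (log2 fold change -2.66, limma adjusted p = 0.0303). *Lif* and the genes of both subunits of its receptor therefore moved in opposite directions. *Ret*, *Gfra3*, *Gfral* and the ligand gene *Nrtn*, all of the GDNF family pathway, were at 0 in all 10 libraries.

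**Figure D4:**
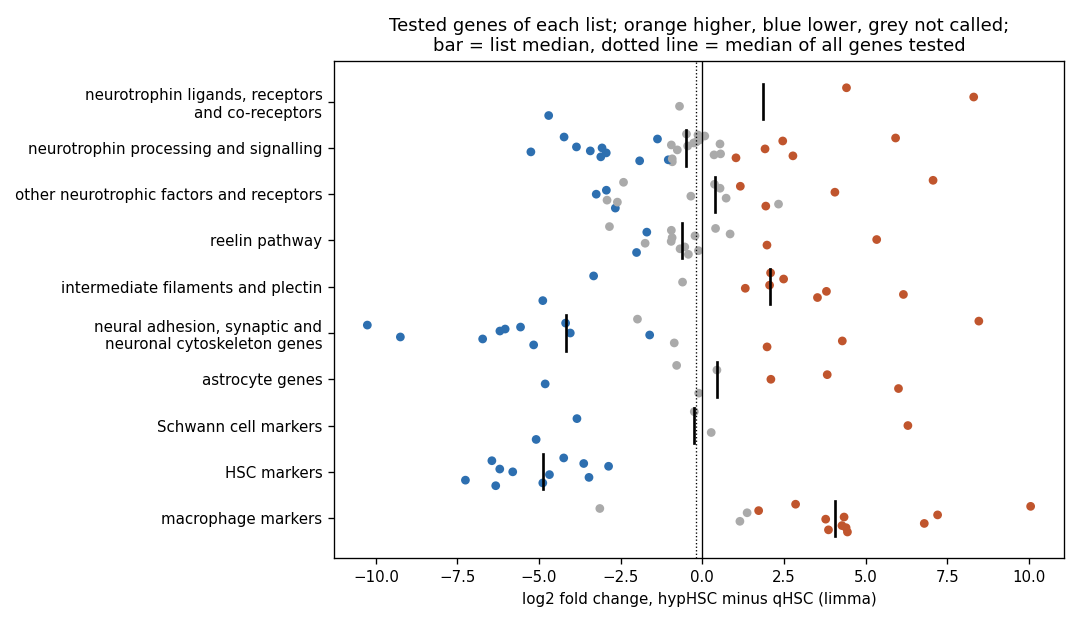
Log2 fold change (hypHSC minus qHSC, limma) on the x axis of each tested gene of 10 lists, orange for called higher, blue for called lower and grey for not called, with the list median as a bar and the median of all genes, -0.20, as a dotted line. The neural adhesion, synaptic and neuronal cytoskeleton list has its median at -4.19, the intermediate filament list at 2.08, the HSC markers at -4.89 and the macrophage markers at 4.07.

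For each tested member, the genes with the most similar pattern over the 10 libraries were found by the root mean square difference of centred log2 values. *Reln* was nearest to *Efemp1*, *Dclk2* and *Bmp5* (0.275 to 0.318) and *Ntf3* to *Trib2*, *Rhod* and *Jam3* (0.293 to 0.295). *Gfap* was nearest to *Hoxb5*, *Ets1* and *Sprn* (0.559 to 0.592), and *Ngfr* to *Adamts13*, *9530026P05Rik* and *St6galnac2* (0.605 to 0.867). For *Nes* they were *Zfp933*, *Mgme1* and *Chst14* (0.222 to 0.257), and for *Ncam1* *Chst11*, *Dpt* and *Psat1* (0.427 to 0.541). The nearest genes of *Bdnf* were *Map1b*, *Gm13749* and *Chn2* (1.07 to 1.29) and those of *Ntrk2* *Plin4*, *Gpr18* and *Armc3* (0.957 to 1.07), a looser match than for the other members. The difference between the groups enters this measure, and the libraries are shared by all genes.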

How the data were processed

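RNA of sorted hypHSCs and qHSCs was measured by paired-end RNA sequencing of 10 libraries. Each deposited value is a signal, the normalized count of a gene, which the authors made by mapping reads to mm39 with STAR, counting them per gene without strand with featureCounts (Subread 1.5.0, per the submitters' processing notes) and dividing by DESeq2 size factors. Whole reads were recovered for 100% of the values of each library, with size factors of 0.661 to 1.20 in hypHSCs and 1.10 to 1.33 in qHSCs. Groups came from the sample titles.

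Entries that had a symbol and reached 10 normalized counts in 5 or more libraries were tested with limma 3.58.1 (eBayes with trend, R 4.3.3) on log2(normalized count + 1). Fold changes of low genes depend on the pseudocount, and where some libraries of a group are at or near 0 they can exceed the ratio of the means. P-values were adjusted by the Benjamini-Hochberg method over all 14630 genes. A gene was called when its log2 fold change was 1 or more in size and its adjusted p did not exceed 0.05. Single members were also given an exact two-sided permutation test over 252 arrangements. FPKM was computed from recovered reads, GENCODE exon lengths on GRCm39 and reads on genes with a symbol. The limma step was tested on simulated data. No 2 libraries of a group agreed within sampling noise (mean chi-square per gene of 49.3 or more over 20 pairs). The floor of 3 reads covers counting error only.

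The members and gene lists were chosen with earlier results of these data known. All 9 members were named. Of each pathway list, without members, the 3 largest rises and 3 largest falls among called genes were named, with every neurotrophin ligand, receptor and co-receptor of the list, whose counts and median leave out genes that are not reported here. Other genes were named as markers, as genes at 0 or as genes that missed the filter after their values had been seen. Alternatives were pseudocounts of 0.5 and 5, other filters, other scalings, edgeR 4.0.16 and DESeq2 1.42.0 on recovered reads, a replicate block, hypHSCs at 12 weeks only, entries without a symbol included, each library left out, and, added after the data had been seen, hypHSC 4 and 5 both left out.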

Additional observations from a re-analysis of the deposited data

Results flagged for a closer look

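In each group of 5 libraries the highest or lowest value was set against the spread of the group, for each of the 9 members. Chance flags about 1 in 20 groups, and 2 of the 18 groups looked at stood out. The first was *Bdnf* in qHSCs, where qHSC 3 at 177.14 normalized counts was far above the other 4 libraries, which ran from 0 to 21.7 (Dixon ratio 0.877). Without qHSC 3 the log2 fold change of *Bdnf* was 5.59 (limma adjusted p = 0.00145). The second was *Reln* in hypHSCs, where hypHSC 1 at 1592.75 normalized counts was above the other 4, which ran from 543 to 821 (Dixon ratio 0.735). Both libraries were kept in the comparisons.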

How the results depend on the processing

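The calls and directions of *Ngfr*, *Gfap*, *Reln*, *Ntf3* and *Ncam1* were the same under all alternatives run. *Bdnf* lost its call in edgeR and DESeq2, so that 1 member was higher there. With all libraries scaled to the same total or on reference genes, 67.6% and 82.6% of called genes were lower in hypHSCs (for reference genes 6990 lower and 1472 higher), compared with 55.0% (3177 and 2602) as deposited, and several counts moved with this. Beside 10 lower and 5 higher genes of neurotrophin processing and signalling, 18 were lower and 2 higher with reference genes, 3 were higher with the same total and with 12-week hypHSCs only, and 6 were lower in edgeR. Of the neurotrophin ligands, receptors and co-receptors, 2 were lower with reference genes in place of 1. Other neurotrophic genes called lower went from 3 to 5 with the same total, 7 with reference genes and 6 with 12-week hypHSCs, and reelin pathway genes from 2 to 5, 11 and 4, and to 4 without hypHSC 4 and 5. Leaving out 1 library at a time gave 3 to 5 higher genes of neurotrophin processing and signalling (3 without hypHSC 2 or qHSC 1), 2 to 5 other neurotrophic genes lower (5 without hypHSC 1 or 2) and 2 to 4 reelin pathway genes lower (4 without hypHSC 5). The cause was not tested.

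*Nes* passed the size threshold also with 12-week hypHSCs only (-1.22) and without hypHSC 1, hypHSC 2 or qHSC 1 (-1.03, -1.02 and -1.06). *Ntrk2*, never called, was negative with the same total (-0.11), with reference genes (-0.62), without hypHSC 4 and 5 (-0.20), and without hypHSC 1 (-0.24), hypHSC 5 (-0.14) or qHSC 2 (-0.55), and leaving out 1 library gave -0.55 to 0.88.

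With the replicate number as a block, 4 members were lower and 2 higher, as without it, and 2557 genes were higher and 3229 lower. Same-numbered libraries deviated together only weakly (r of 0.008 to 0.129 across genes, 1 of 5 nearest to its own number), so the block was not used.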
